A study of Mus musculus with 20 samples.

Results

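Peaks of H3K27ac, the acetylated form of lysine 27 in histone H3 that sits on promoters and enhancers in use, were compared between RAW264.7 cells given the cytokine RANKL for 4 h and untreated RAW264.7 cells. RAW264.7 is an established mouse macrophage line, described in the labels as monocyte-derived, that can form osteoclasts, the cells that resorb bone. The members are 6 immunoprecipitated libraries out of the 20 samples of the series: 3 replicates of untreated cells and 3 replicates of cells with RANKL at 50 ng/ml for 4 h, chosen by their labels. No genotype or other agent distinguishes the groups, all cells were cultured in DMEM, and no separate cultures are named, and the p-values below reflect the spread among these libraries alone, a spread that may be technical. Each library came with 1 list of broad peaks on mm10 (GRCm38). The lists hold no read counts, so sequencing depth is unknown.

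RANKL binds its receptor RANK (Tnfrsf11a) on osteoclast precursors. TRAF adaptors under the receptor switch on NF-kB and the MAP kinases, which in turn raise the activity of AP-1 (Fos and Jun proteins) and of the master regulator Nfatc1. Genes of cell fusion and bone resorption follow later, while macrophage and interferon programmes act as brakes or parallel outputs. The comparison asks which promoters and distal sites carry the mark after the first hours of this signal.

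RANKL replicate 2 stood apart. Its list held 141905 peaks over 184.6 Mb, whereas the other 5 lists held between 9893 and 17794 peaks over 7.79 to 25.9 Mb. Start sites of genes that mark other cell types had no peak in those 5 lists, while RANKL replicate 2 had peaks at 12 of 14 lymphocyte markers, 9 of 14 fibroblast and osteoblast markers and 14 of 18 markers of tissues absent from the culture. The untreated list numbered 2 was the shortest of the 6. The main reading therefore rests on replicates 1 and 3 of both groups, and replicate 2 is given apart. Of 30 macrophage identity and repressor genes, 23, 15 and 19 had start peaks in untreated replicates 1, 2 and 3 and 26, 26 and 21 with RANKL. Csf1r, which is 1 of them, and Spi1, counted with the NFATc1 axis, had a start peak in all 6 libraries.

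**Figure D1:**
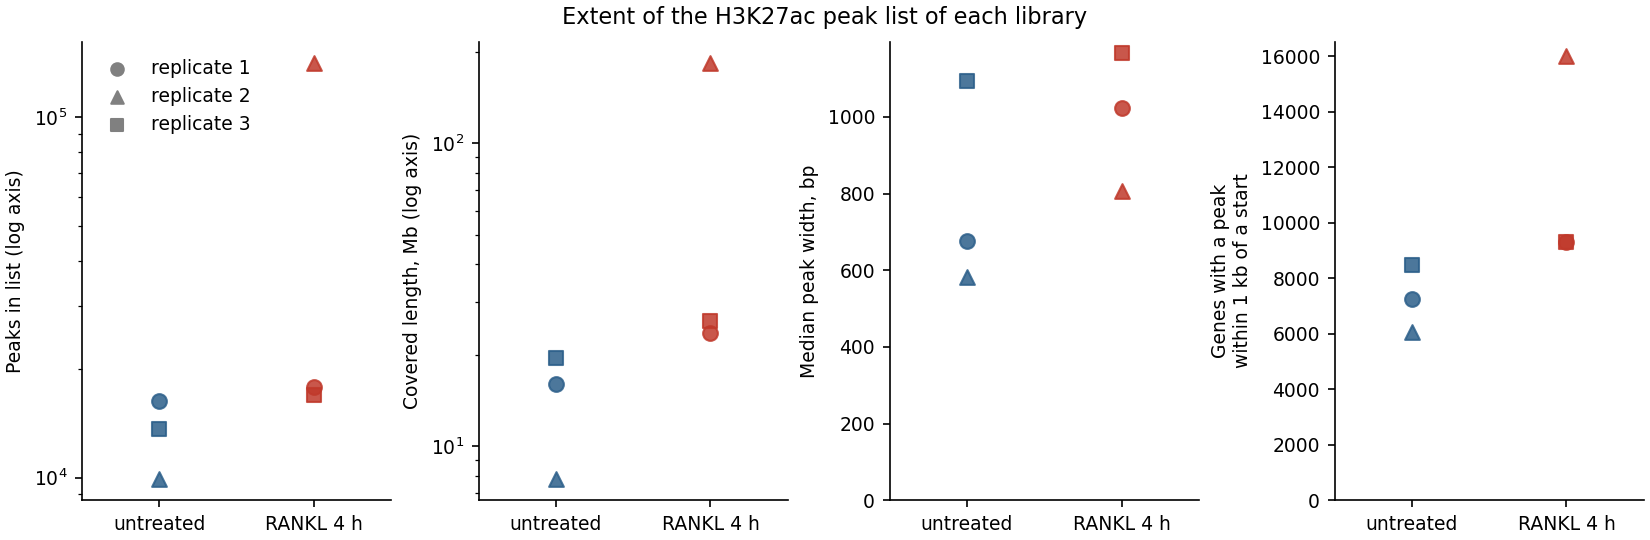
Number of peaks, covered length (both on log axes), median peak width and number of protein-coding genes with a peak within 1 kb of a start, for each library (1 point per library; circle, triangle and square for replicates 1, 2 and 3). RANKL replicates 1 and 3 lie above untreated replicates 1 and 3 in peak number, covered length and start peaks, and RANKL replicate 2 lies far above all others in the same measures.

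The RANKL lists were longer. Over 3 replicates, median peak widths were 676, 583 and 1093 bp in untreated cells and 1023, 806 and 1167 bp with RANKL, so that the groups overlapped (difference 214.7 bp, exact permutation p = 0.3, two-sided, n = 3 each). Restricted to replicates 1 and 3, RANKL lists held 2335 more peaks and 7.01 Mb more covered length on average. Neither library of one group overlapped the other group in these 2 measures, but 2 against 2 allows no exact p under 0.333. Protein-coding genes with a peak within 1 kb of a start numbered 7266, 6079 and 8460 in untreated cells and 9294, 16025 and 9310 with RANKL. Sequencing depth is unknown, so longer lists do not establish that acetylation rose. Nor can these lists tell more acetylated cells from more acetylation per cell.

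Some promoters of genes described here hold matches to known binding motifs, and examples are shown so that the acetylated stretch can be read. The sequences are RefSeq promoters on GRCm38.p6, from 250 bases before to 50 bases after a listed start, 5′ to 3′ on the gene's strand. Capitals mark motif matches on either strand. Genes were picked after their values were seen, and every promoter printed holds a match. Those of Cmpk2, Cebpb, Gpr84 and Irf2bp2 and another listed start of Isg20 had none and are left out. Among gained and widened promoters AP-1 and NFAT matches were less frequent than among all promoters, and NF-kB matches more frequent. Interferon-response matches lay on both sides. Promoters with a peak in all 4 lists were closer: AP-1 4.30% and 4.58% against 4.35%, and NFAT 14.2% and 15.2% against 15.3%. The NF-kB share of gained promoters was 7 of 372 (1.88%, against 1.55% with a peak in all 4 lists). A match is a description of letters and not a bound site.
Isg15, an interferon-induced ubiquitin-like protein, gained a start peak (chr4:156200769-156201068, minus strand; the first capitals hold 3 overlapping interferon-response matches, the last an NFAT match): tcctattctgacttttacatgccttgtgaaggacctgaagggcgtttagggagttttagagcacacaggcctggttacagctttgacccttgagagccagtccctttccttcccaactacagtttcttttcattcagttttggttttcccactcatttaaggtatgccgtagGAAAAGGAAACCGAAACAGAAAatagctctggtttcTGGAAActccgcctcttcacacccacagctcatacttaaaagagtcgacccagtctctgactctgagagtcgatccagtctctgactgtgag
Isg20, an interferon-induced exonuclease, gained a start peak (chr7:78913515-78913814, plus strand; an NF-kB match, then a CAAT box): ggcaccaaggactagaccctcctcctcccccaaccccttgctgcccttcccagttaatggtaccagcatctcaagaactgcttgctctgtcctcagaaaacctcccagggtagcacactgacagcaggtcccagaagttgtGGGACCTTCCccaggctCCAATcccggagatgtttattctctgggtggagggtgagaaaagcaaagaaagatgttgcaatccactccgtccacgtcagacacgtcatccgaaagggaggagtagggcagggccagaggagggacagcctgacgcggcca
Nfkb2, the p100 subunit of non-canonical NF-kB, lay in a widened region (chr19:46305680-46305979, plus strand; an NF-kB match, then an NFAT match): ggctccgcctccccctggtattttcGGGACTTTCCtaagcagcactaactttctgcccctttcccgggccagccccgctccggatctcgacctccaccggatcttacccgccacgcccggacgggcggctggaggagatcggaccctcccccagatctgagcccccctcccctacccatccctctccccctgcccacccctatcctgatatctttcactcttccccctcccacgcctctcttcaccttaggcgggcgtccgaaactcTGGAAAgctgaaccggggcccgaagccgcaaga
Nfkbie, which encodes the inhibitor IkB epsilon, lay in a widened region (chr17:45555450-45555749, plus strand; an AP-1 match): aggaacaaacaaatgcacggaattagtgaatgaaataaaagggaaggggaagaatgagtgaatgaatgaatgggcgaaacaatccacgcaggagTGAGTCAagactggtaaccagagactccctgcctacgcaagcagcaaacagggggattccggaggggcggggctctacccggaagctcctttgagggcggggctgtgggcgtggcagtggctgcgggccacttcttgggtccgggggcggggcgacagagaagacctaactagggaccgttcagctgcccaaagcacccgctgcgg
Serpinb8, a serine protease inhibitor, lay in a widened region (chr1:107589756-107590055, plus strand; 2 AP-1 matches): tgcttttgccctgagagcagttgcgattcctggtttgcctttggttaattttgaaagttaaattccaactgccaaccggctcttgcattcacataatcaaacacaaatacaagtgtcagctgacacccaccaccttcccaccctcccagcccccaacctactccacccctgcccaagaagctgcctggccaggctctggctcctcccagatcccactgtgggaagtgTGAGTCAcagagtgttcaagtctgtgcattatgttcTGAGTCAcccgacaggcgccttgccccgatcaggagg

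Consensus regions were stretches covered by at least 2 of the 6 lists, and there were 20210. Coverage of 1 bp by a library's peaks was enough for it to hold a region. Regions held by RANKL replicates 1 and 3 and by neither untreated replicate 1 nor 3 are called gained, and the reverse pattern lost. By this pattern 1110 regions (5.49%) were gained and 58 (0.287%) were lost, a description for which no test was run. A region held by all 4 lists is called shared, and widened where both RANKL lists covered more of it than either untreated list and the RANKL mean was at least 1.5 times the untreated mean. Of 10071 shared regions 2098 (20.8%) were widened, and 75 (0.745%) showed the reverse, here called narrowed. At the level of genes, 375 of 21887 protein-coding genes (1.71%) gained a start peak and 5 (0.0228%) lost one.

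These counts follow list length. When every list was reduced to its strongest peaks until all 4 had one peak number, 772 regions were gained and 445 lost, 1055 were widened and 35 narrowed, and 224 genes gained and 175 lost a start peak. At one covered length (16.1 Mb) the balance of presence turned, to 614 regions gained against 1402 lost and 252 genes gaining against 710 losing a start peak. Widening kept its direction there, with 520 regions widened against 13 narrowed. The reduction drops whole peaks and shortens none, so it does not remove a width difference between lists and cannot decide on widening. Over 3458 shared regions at this length the median log2 length difference was 0.28, with libraries not centred. Over the intervals as first defined, 589 of the 1110 gained regions were still gained at one peak number and 340 at one covered length, where 239 of them were held by none of the 4 lists, and 0 turned into losses. Of the 2098 widened regions 1212 and 624 were still widened, and 0 were narrowed. Leaving out a library loosens the pattern. Gained regions then numbered 2214 without untreated replicate 1, 3445 without untreated replicate 3, 2124 without RANKL replicate 1 and 2301 without RANKL replicate 3, against 179, 938, 232 and 319 lost. Widened regions numbered 2247, 4920, 2841 and 2318 in the same order, and narrowed ones 337, 336, 219 and 462. Genes gaining a start peak numbered 678, 1920, 592 and 589, and those losing one 25, 67, 27 and 42.

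**Figure D2:**
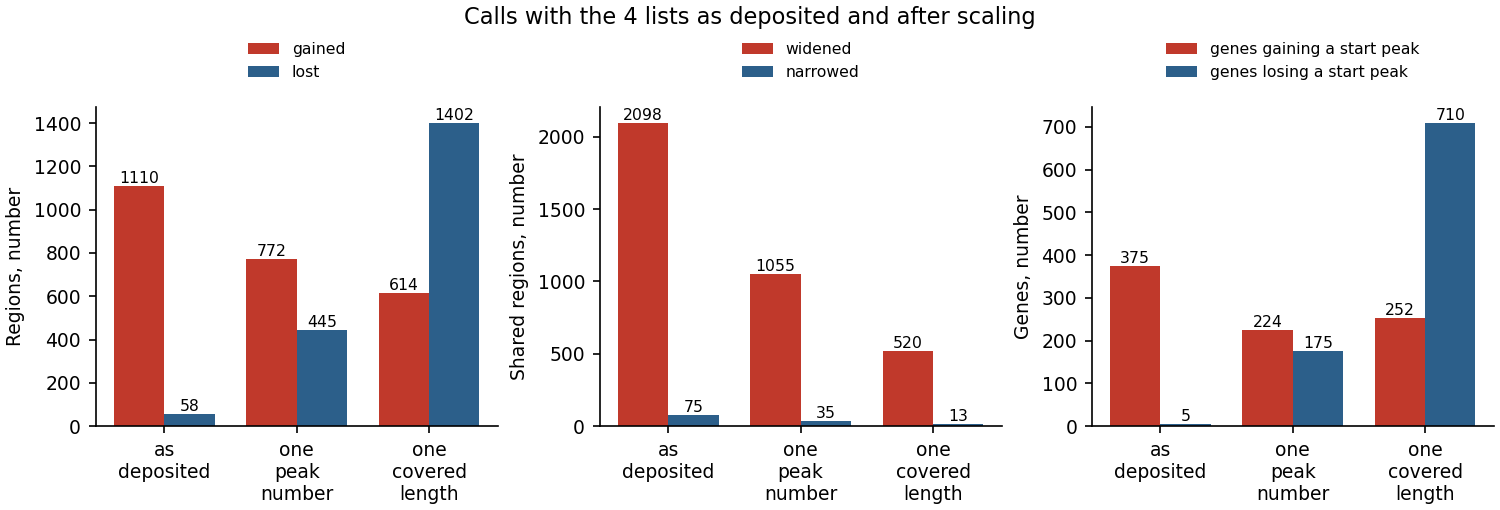
Number of regions gained and lost (left), shared regions widened and narrowed (middle) and genes gaining and losing a start peak (right) with the lists of replicates 1 and 3 as deposited, reduced to one peak number and reduced to one covered length. Red bars exceed blue bars as deposited in all 3 panels. At one covered length losses (1402 regions, 710 genes) exceed gains (614 regions, 252 genes). Widening (520) exceeds narrowing (13) there, but the reduction drops whole peaks and shortens none.

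The 2 pairs and the replicate 2 libraries showed the same side of the contrast to different degrees. In replicate 1, 4731 regions were held with RANKL alone and 1535 by untreated cells alone, and in replicate 3 the numbers were 3737 and 483. The gained regions made up 23.5% of the RANKL-only regions of replicate 1 and 29.7% of those of replicate 3. In replicate 2 the numbers were 9818 and 239. RANKL replicate 2 held 862 of the 1110 gained regions (77.7%, against 90.4% of all regions), and untreated replicate 2 held 129 (11.6%, against 43.0%). Reduced to one covered length of 7.79 Mb, RANKL replicate 2 held 45 gained regions and 651 of all 20210 regions, and untreated replicate 2 held 129 and 8687.

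Gained regions were mostly short and away from gene starts. Their median width was 632 bp, against 1138 bp for all regions. Starts took 366 of them (33.0%), gene bodies 452 (40.7%) and intergenic stretches 292 (26.3%), whereas all regions split into 44.3%, 33.1% and 22.6%. Put the other way, 4.09% of start regions and 6.61% of distal regions were gained. An untreated peak of replicate 1 or 3 lay within 1 kb of 143 of them (12.9%), so these can be the edge of a site already marked, and 967 remained without such a neighbour.

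The 10 strongest gained regions at starts were ranked by the lower of the authors' -log10 p values in RANKL replicates 1 and 3. Arfgap3, a GTPase-activating protein of Golgi transport, ranked first (chromosome 15, 83349802 to 83350626). Its region was covered over 0, 147 and 0 bp in untreated replicates 1, 2 and 3 and over 803, 825 and 709 bp with RANKL. All 3 RANKL lists thus covered it more than any untreated list. Il1rap encodes the co-receptor that interleukin-1 signals need. Its start region (chromosome 16, 26581245 to 26582066) was empty in all 3 untreated lists and covered over 268, 822 and 805 bp with RANKL. Mon1a, which acts in lysosomal and secretory traffic, had 0 bp in each untreated list and 187, 469 and 462 bp with RANKL. Pgm2, an enzyme of pentose metabolism, had 0 bp in untreated lists and 978, 978 and 258 bp with RANKL. Neither had untreated coverage. In replicates 1 and 3 the pattern is the definition of a gained region, and RANKL replicate 2 held 90.4% of all regions. Gga2, a clathrin adaptor of the Golgi, and Asrgl1, an asparaginase, likewise had no untreated coverage and between 241 and 343 bp in each RANKL list. Rgs1, a brake on G protein signalling, had 351 bp in RANKL replicates 1 and 3 but 0 bp in RANKL replicate 2, and an untreated peak lay within 1 kb. Where RANKL replicate 2 held nothing, a gained region is by construction the overlap of the other 2 RANKL peaks, which is why both lengths are the same. The remaining 3 were Cep128, a centriole protein, Yipf5, a membrane protein of early secretion, and Chchd7, with 260 to 938 bp in RANKL replicates 1 and 3. Untreated replicate 2 covered 640 bp of the Yipf5 region.

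Distal sites were gained near Aif1, the macrophage calcium-binding protein also known as Iba1, and near Nelfa, a subunit of the complex that pauses RNA polymerase II. The Aif1 site lay inside the gene, 2.41 kb from a start (chromosome 17, 35172191 to 35173646). It had 0 bp in all 3 untreated lists and 1240, 1456 and 1456 bp with RANKL, the widest of the 10 strongest distal gains. The authors' fold enrichment of the peaks there was 8.02, 6.02 and 4.23. The Nelfa site lay 17.5 kb from the start (chromosome 5, 33953728 to 33954095), with 0 bp in untreated lists and 162, 368 and 270 bp with RANKL. Sites inside Fndc3b (351, 718 and 804 bp with RANKL) and Pdss2, an enzyme of coenzyme Q synthesis (550, 660 and 445 bp), were also empty in every untreated list. Prr14l (168, 407 and 393 bp) and a site with no gene within 100 kb (chromosome 7, 72672711 to 72673056; 223, 346 and 346 bp) completed the set that all RANKL lists covered. The sites at Babam2, Grxcr1 and Cdc42se2 had 209, 305 and 183 bp in RANKL replicates 1 and 3 and 0 bp in RANKL replicate 2. The site inside Nr1d1, first by strength, was a stretch of 38 bp with an untreated peak within 1 kb. The nearest gene is a label of position and need not be the gene a site acts on.

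**Figure D3:**
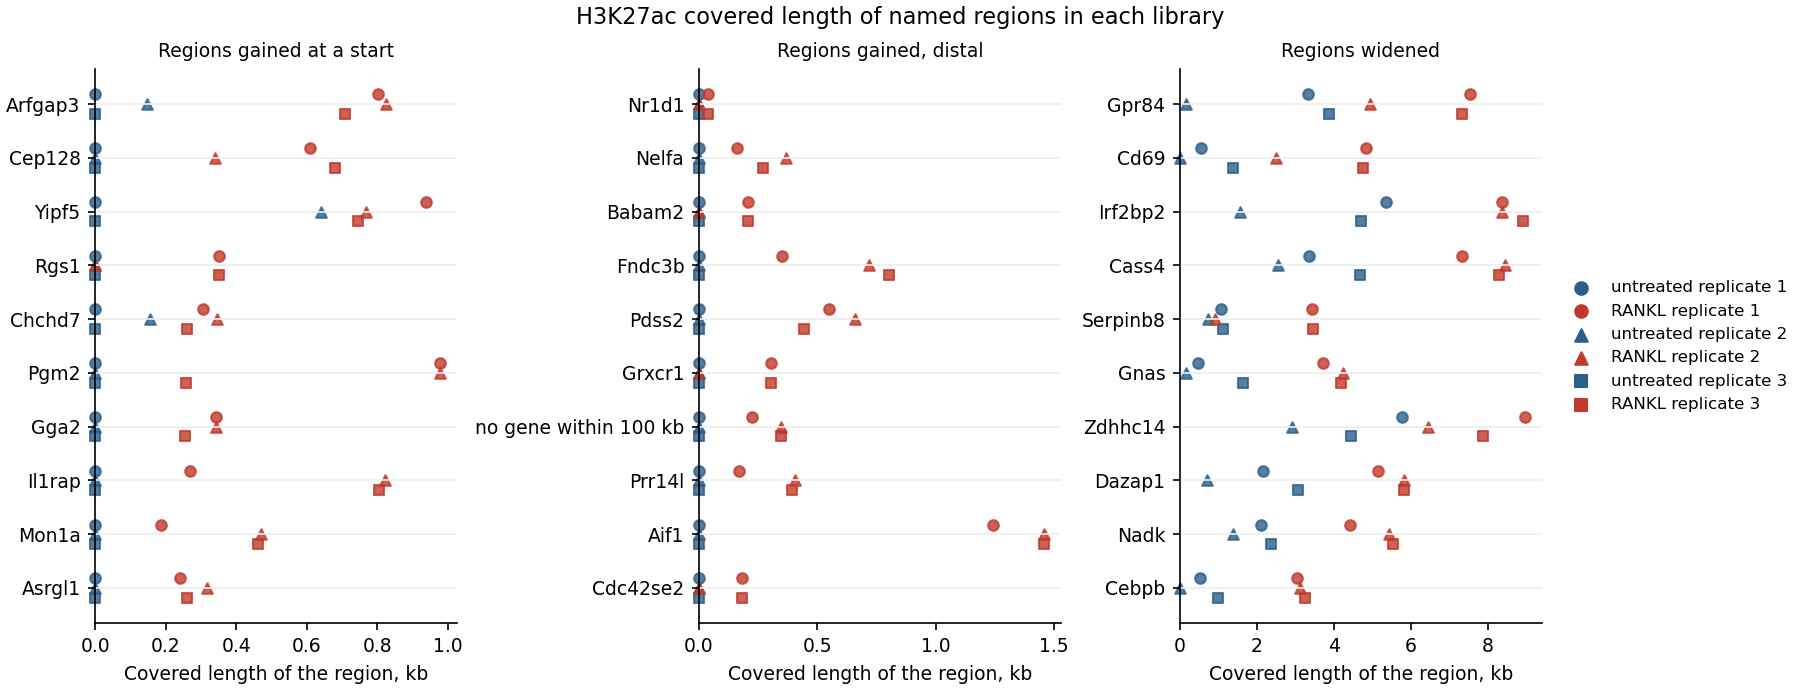
Covered length in kb of the 10 strongest gained regions at starts, the 10 strongest distal gained regions and the 10 most widened regions in each library (blue untreated, red RANKL; circle, triangle and square for replicates 1, 2 and 3), labelled by the nearest gene. In the left and middle panels untreated replicates 1 and 3 sit at 0 by the choice of regions, and in the right panel the red circles and squares lie right of the blue ones.

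Several genes were nearest to 3 or more gained sites. Dock10, a guanine nucleotide exchange factor, Gnaq, a G protein subunit, and Lpar1, a receptor for lysophosphatidic acid, were each nearest to 4. Arhgap18, Cdk6, Creb5, Niban1, Notch2, Prkch, Utrn and Yaf2 were each nearest to 3. Of 10209 genes near any region 977 (9.57%) were nearest to a gained one, and of 6992 near a shared region 1894 (27.1%) were nearest to a widened one. The 11 genes with 3 or more had a median length of 190.0 kb, against 41.6 kb for genes near any gained region and 24.3 kb for genes near any region. Inside Prkch, a protein kinase C, the 3 sites were covered over 1428, 1428 and 556 bp, 418, 523 and 619 bp, and 958, 644 and 580 bp in RANKL replicates 1, 2 and 3, with 0 bp in every untreated list. All 3 RANKL lists held each of these sites, but the peaks were weak. The lower -log10 p over RANKL replicates 1 and 3 was 1.81, 2.80 and 2.64, against list medians of 4.87 and 5.04. At the first site the fold in RANKL replicate 3 was 1.28. Utrn, a cytoskeletal linker, had 3 sites of 536 to 1341 bp in each RANKL list and none in untreated lists. Creb5, a CREB family factor, had 1 site inside the gene and 2 beyond its end, of 207 to 1300 bp with RANKL and 0 bp in untreated lists. At Notch2, a receptor that osteoclast precursors use, 3 sites inside the gene were covered over 272 to 870 bp with RANKL, and untreated replicate 2 covered 147 bp of one of them. Cdk6, a cell cycle kinase, had 3 gained sites, of which RANKL replicate 2 held 2, and 2 widened ones.

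The 10 most widened regions were ranked by the gap between the groups. At a widened region replicates 1 and 3 separate by definition, and RANKL replicate 2 was longer than untreated replicate 2 at 90.6% of all shared regions, so statements on separation describe the values only. The widest gap lay at Gpr84, a receptor for medium-chain fatty acids on myeloid cells (chromosome 15, 103304511 to 103312118). Its start region was covered over 3.34, 0.147 and 3.87 kb in untreated replicates 1, 2 and 3 and over 7.54, 4.95 and 7.33 kb with RANKL. The lowest RANKL value exceeded the highest untreated one. An intergenic site lay 30.1 kb from the nearer end of Cd69, an early activation antigen (chromosome 6, 129232384 to 129237220). It was covered over 0.543, 0 and 1.39 kb in untreated cells and 4.84, 2.50 and 4.76 kb with RANKL. On the log2(length + 100 bp) scale, with libraries centred on their medians, that is a difference of 1.95 (SE 0.34). limma gave it an adjusted p of 0.911, and of 0.0277 (SE 0.31) with the replicate number as a block. A site 25.7 kb from the start of Cebpb, a transcription factor of macrophage activation (chromosome 2, 167714582 to 167717838), was covered over 0.531, 0 and 0.994 kb in untreated cells and 3.05, 3.13 and 3.26 kb with RANKL. Length is counted only inside a region, here 3257 bp wide, so the RANKL values lie near its limit and are alike by construction. Gnas, the stimulatory G protein alpha subunit, had 0.470, 0.162 and 1.64 kb against 3.73, 4.24 and 4.18 kb at a start. Both sites had 3 RANKL values above 3 untreated values.

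Other widened regions lay at Irf2bp2, a transcriptional corepressor, with 5.35, 1.55 and 4.71 kb in untreated cells and 8.36, 8.36 and 8.91 kb with RANKL; at one covered length the direction turned (RANKL minus untreated -2179.5 bp). In Cass4, an adhesion scaffold, a site had 3.35, 2.55 and 4.68 kb against 7.34, 8.45 and 8.29 kb. The Serpinb8 start had 1.06, 0.733 and 1.12 kb in untreated cells and 3.42, 0.917 and 3.46 kb with RANKL, so replicate 2 did not show it. The start of Nadk, which makes NADP, had 2.11, 1.38 and 2.36 kb against 4.43, 5.43 and 5.52 kb. Dazap1, an RNA-binding protein, and Zdhhc14, a palmitoyltransferase, were the last of the 10, with RANKL replicates 1 and 3 between 5.14 and 8.96 kb and the untreated ones between 2.15 and 5.78 kb. Across all 2098, RANKL replicate 2 was longer than untreated replicate 2 in 1967 regions (93.8%) and shorter in 71, against 90.6% longer among all shared regions.

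Length without RANKL enters both the ratio that defines widening and the classes used here, so a lower share in longer classes is partly built in. Of regions with a mean untreated length under 500 bp 49.6% were widened, and the share was 29.7%, 13.4% and 7.67% in the 3 longer classes and 2.14% of the 420 regions over 4000 bp. Regions at starts were widened in 1335 of 5910 cases (22.6%) and distal ones in 763 of 4161 (18.3%). The share per replicate pair wider by at least 1.5 times was 41.7% in replicate 1, 71.7% in replicate 2 and 22.4% in replicate 3, with median log2 length ratios of 0.41, 1.11 and 0.18. The pairs thus differ in how much they widened.

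**Figure D4:**
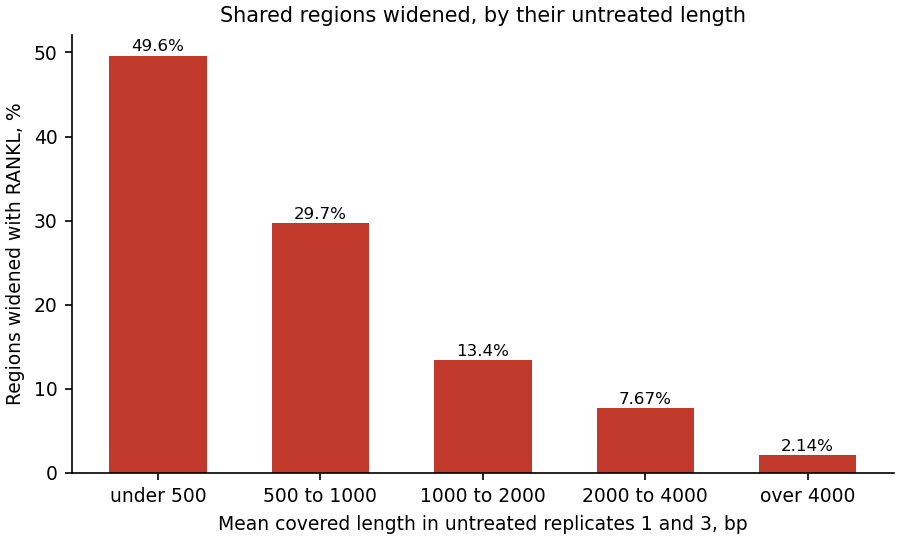
Percentage of shared regions widened with RANKL (vertical axis) by the mean covered length in untreated replicates 1 and 3 (horizontal axis, bp). The bars descend from 49.6% for regions under 500 bp to 2.14% for regions over 4000 bp.

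No region or gene passed a model across all features without the block. limma on the 10071 shared regions called 0 wider and 0 narrower (0%) at an adjusted p of 0.05, with 292 at an unadjusted p under 0.05, of which 189 were wider. With the replicate block it called 1 wider and 1 narrower (0.0199%): the Cd69 site, and a site inside Rtn4, a shaping protein of the endoplasmic reticulum, that was covered over 5.14, 0 and 5.14 kb in untreated cells and 2.54, 0 and 1.55 kb with RANKL (log2 difference -1.70, SE 0.24 and limma adjusted p = 0.0133 with the block). With 2 pairs that fit leaves 1 residual degree of freedom per region, so it leans on the spread pooled over regions. Untreated replicates 1 and 3 both covered the whole Rtn4 region of 5135 bp. Length is counted only inside a region, so their equal values are set by its limits and hide any spread. Among the 10 lowest p-values were the start of Egr1, an immediate early factor, at 0.325, 1.34 and 0.340 kb in untreated cells and 2.21, 2.63 and 2.34 kb with RANKL (log2 difference 2.09, SE 0.36, limma adjusted p = 0.911). The Nfkbie start was close behind, at 0.654, 0.984 and 0.458 kb against 2.53, 3.09 and 2.86 kb (1.74, SE 0.38, limma adjusted p = 0.911). At Egr1 and Nfkbie every RANKL list exceeded every untreated list, and replicates 1 and 3 are also the libraries that gave the ranking. Over 10654 gene windows, within 25 kb of either gene end at one covered length, limma called 0 (0%), with 626 at an unadjusted p under 0.05, of which 205 were higher.

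Of 38 shared regions nearest to NF-kB pathway genes 14 were widened (36.8%) and 0 narrowed, against 20.8% of all shared regions. With the MAP kinase list this was the highest share among the lists as deposited, an order that did not hold throughout: inflammatory genes reached 38.5% without untreated replicate 1 and interferon genes 53.3% without RANKL replicate 1. These 14 lay at 13 genes. Subunits were Nfkb2, Relb and Nfkb1, and inhibitors and feedback genes were Nfkbie, Nfkbiz, Tnfaip3, Tnip1, Cyld and Bcl3. Adaptors and kinases were Traf1, Traf3, Map3k7 and Ikbkb. The Nfkb2 start was covered over 0.447, 0 and 1.53 kb in untreated cells and 2.17, 2.38 and 2.38 kb with RANKL. At Tnfaip3, the ubiquitin-editing inhibitor A20, the values were 0.141, 0.208 and 0.764 kb against 1.30, 1.77 and 1.54 kb. Relb, the partner of p52, had 773, 0 and 361 bp against 1204, 1621 and 807 bp. In all of these the RANKL values lay above the untreated ones. For replicates 1 and 3 that is the definition of widening, and RANKL replicate 2 was longer than untreated replicate 2 at 90.6% of all shared regions. Traf5 gained a start peak, with 0, 147 and 0 bp against 528, 528 and 445 bp, and so did Traf4, with 0 bp in each untreated list and 574, 574 and 446 bp with RANKL. Distal sites were gained near Nfkbiz and inside Commd1. NF-kB regions had a median untreated length of 1.01 kb, against 1.13 kb over all, and the part of length in the share was not tested. With libraries centred on their medians, the median log2 difference of these regions was 0.04, against -0.04 over all.

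MAP kinase genes were similar, with 14 of 37 shared regions widened (37.8%) and 0 narrowed, at a median untreated length of 1.29 kb. Their centred median log2 difference was 0.05, against -0.04 over all. Kinases were Map2k1, Map2k2, Map2k3, Mapk3, Mapk9, Mapk14 and Mknk2, and feedback genes were Dusp1, Dusp2, Dusp5, Dusp16, Spry2 and Spred1. The start of Dusp2, a nuclear phosphatase of ERK, was covered over 0.141, 0 and 0.648 kb in untreated cells and 1.73, 1.91 and 1.82 kb with RANKL. Spry2, an inhibitor of receptor signalling to ERK, had 923, 0 and 1252 bp against 2587, 3256 and 2431 bp. Every RANKL value lay above every untreated one at both, which for replicates 1 and 3 is the definition of widening. Distal sites were gained near Dusp5 and Dusp6, which both restrain ERK. At one covered length 4 of 11 NF-kB and 5 of 15 MAP kinase regions were widened (36.4% and 33.3%), against 15.0% of all. Without untreated replicate 1 the shares were 22.5% and 25%, against 18.2% of all. They were 53.3% and 50% without untreated replicate 3, against 44.0% of all, 35.9% and 28.9% without RANKL replicate 1, against 27.7%, and 27.5% and 35.1% without RANKL replicate 3, against 22.6%. Both shares stayed above that of all regions in these 4 settings, by margins that varied.

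**Figure D5:**
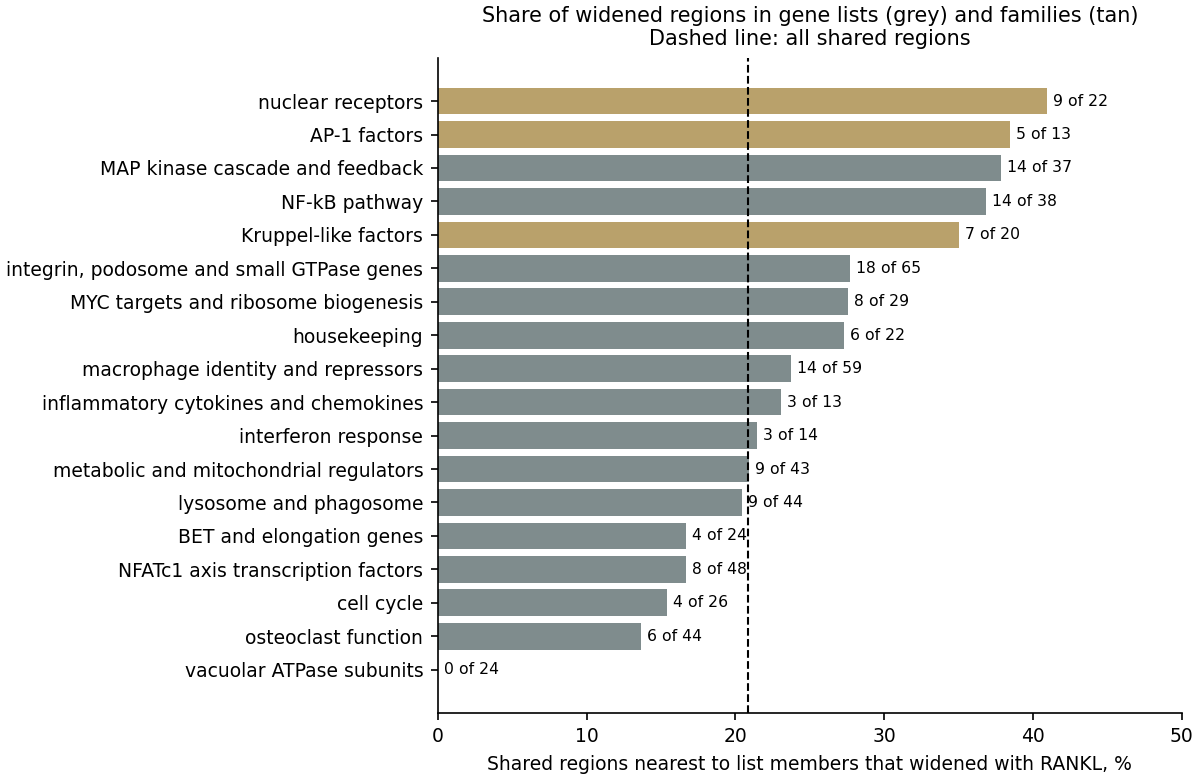
Percentage of shared regions nearest to the members of each gene list (grey) and of 4 families (tan) that were widened with RANKL, with counts beside the bars and a dashed line at 20.8% for all shared regions. NF-kB, MAP kinase, AP-1 and nuclear receptor genes lie right of the line, osteoclast function genes left of it at 13.6%, and vacuolar ATPase subunits at 0; without untreated replicate 1 the last 2 lie right of the background (21.2% and 19.2%, against 18.2%).

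Among transcription factors, AP-1 genes had no gained region but 5 of 13 shared regions widened (38.5%). Without untreated replicate 1 that share was 2 of 15 (13.3%), below the 18.2% of all regions, and at one peak number it was 2 of 11. On the centred scale their median log2 difference was -0.13, against -0.04 over all. Fos, a partner in AP-1 that osteoclasts need, had 3 widened intergenic sites. The nearest, 22.7 kb from the start, was covered over 0.521, 0.599 and 0.743 kb in untreated cells and 1.24, 1.72 and 1.69 kb with RANKL. At Fosl2 the start had 1.88, 3.34 and 3.94 kb against 5.18, 6.61 and 6.33 kb, and at Jund 3.13, 3.16 and 3.79 kb against 5.42, 6.11 and 5.05 kb. Each of these starts was longer in every RANKL list than in every untreated list, which for replicates 1 and 3 is the definition of widening. The NFATc1 axis list as a whole had 8 of 48 regions widened (16.7%) and 8 of 104 gained, against 5.49% of all regions. The gains were 3 each at the long genes Creb5 and Notch2, and 1 each at Mef2c and Myc. Myc had 1 gained site, 52.9 kb away, covered over 0, 253 and 0 bp in untreated cells and 2084, 2084 and 512 bp with RANKL.

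Nuclear receptors, ligand-regulated and orphan factors, had 9 of 22 shared regions widened (40.9%) and 6 of 45 members with a gain (13.3%), against 4.68% of all protein-coding genes. Of these 6 members, 5 were nearest to a gained region. Nr4a1, an immediate early orphan receptor, had 2 gained distal sites, of 0, 842 and 0 bp against 1218, 1218 and 838 bp and of 0 bp in untreated lists against 180, 452 and 314 bp. Untreated replicate 2 thus reached the RANKL range at the first of them. Ppard, a fatty acid sensor, gained a start region with 0 bp in untreated lists and 510, 623 and 507 bp with RANKL. Nr4a3 gained a start peak but no region. Its widened region, 0.429 kb from a start, had 1.29, 0.147 and 1.04 kb against 2.08, 2.25 and 2.17 kb, so the site was marked before RANKL. At one covered length 2 of 13 nuclear receptor regions were widened (15.4%), near the 15.0% of all regions, and without untreated replicate 1 it was 5 of 29 (17.2%), below the 18.2% of all. Kruppel-like factors had 7 of 20 widened as deposited (35%) and 0 of 6 at one covered length. Klf2, a factor of macrophage quiescence, had 0.219, 2.01 and 0.763 kb against 2.74, 2.74 and 2.37 kb at its start.

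The families with the highest share of gaining members, among those with at least 8, were DOCK exchange factors with 3 of 11 (Dock4, Dock10, Dock11), protein kinase C with 3 of 14 (Prkcb, Prkch, Prkci; of its 14 shared regions 3 were widened and 3 narrowed) and vacuolar ATPase subunits with 4 of 25. The proton pump acidifies the resorption lacuna of osteoclasts. Its gained regions were at Atp6ap1, Atp6ap2, Atp6v1c1 and Atp6v1e1, while 0 of 24 shared regions were widened as deposited and 5 of 26 (19.2%, against 18.2% of all) without untreated replicate 1. Inside Atp6ap2 the region had 0 bp in untreated lists and 1720, 1720 and 1158 bp with RANKL, and at Atp6v1c1 it had 162 bp in RANKL replicates 1 and 3 and 0 bp in RANKL replicate 2. These pump gains were weak. In the order named, their lower -log10 p over RANKL replicates 1 and 3 was 1.69, 2.60, 2.24 and 2.69. The medians of those lists were 4.87 and 5.04. The Dock4 start had 0 bp in untreated lists and 853, 853 and 838 bp with RANKL. The Dock11 and Prkcb sites had 184 and 48 bp in RANKL replicates 1 and 3 and 0 bp in RANKL replicate 2. Dock4, Dock10, Dock11, Prkcb and Prkch are 189.3 to 400.9 kb long, against a median of 24.3 kb for genes near any region. Interferon-induced effectors had 3 of 22 members with a gain, Rab GTPases of vesicle traffic 8 of 59 and nuclear receptors 6 of 45. Over all protein-coding genes the share with a gain was 4.68%. Families were ranked on these same shares, so the order is a description.

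Osteoclast effector genes stood near the background. Of 28 measured members 0 gained a start peak, against 1.71% of all genes, and 5 of 90 regions were gained, against 5.49% of all. Of the 23 members near a region 3 were nearest to a gained one (Cd47, Itpr3 and Atp6v1c1), against 9.57%. Of 44 shared regions 6 were widened (13.6%, against 20.8%) and 1 narrowed, but 5 of 24 (20.8%, against 15.0%) at one covered length were widened, as were 11 of 52 (21.2%, against 18.2%) without untreated replicate 1, so the side of the background turned. Itpr3, a calcium release channel, had 2 gained sites upstream and a widened start of 1.13, 0 and 1.22 kb against 2.51, 2.51 and 1.68 kb. Acp5, the resorption phosphatase, had 1.26, 0.719 and 2.20 kb of covered length within 25 kb of its ends in untreated cells and 3.41, 27.1 and 2.87 kb with RANKL. Ctsk, the collagenase of resorption, had 15.8, 8.59 and 14.1 kb against 17.1, 19.3 and 16.3 kb, and a start peak in all 6 lists. For both genes RANKL values exceeded untreated ones. Ocstamp, a fusion protein, had 0.250, 0.299 and 1.83 kb against 1.78, 23.0 and 4.73 kb. Dcstamp, the other fusion protein, had 0.854, 0.714 and 4.33 kb against 2.54, 17.4 and 6.63 kb. Both overlapped between groups. The pump subunit Atp6v0d2 had 7.15, 0.481 and 0.963 kb against 1.95, 1.06 and 2.51 kb. Mmp9, Itgb3 and Prdm1 had no peak within 25 kb in any list but RANKL replicate 2, where markers of absent tissues were covered too. At one covered length Ctsk and Dcstamp were lower with RANKL (log2 differences -0.17, SE 0.30, and -0.25, SE 0.74). limma gave Acp5 a log2 difference of 1.09 (SE 0.41, adjusted p = 0.848).

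Upstream genes were marked before RANKL. Nfatc1 had 6.69, 4.53 and 11.9 kb within 25 kb of its ends in untreated cells and 11.4, 69.1 and 15.7 kb with RANKL, and its start had a peak in untreated replicate 3 and every RANKL list. Tnfrsf11a had 5.722, 2.116 and 10.995 kb against 9.984, 16.585 and 10.488 kb, with a start peak in all 6 lists. Untreated replicate 3 overlapped the RANKL values of both genes. Csf1r, the receptor that keeps macrophages alive, had 12.2, 7.74 and 15.0 kb against 14.3, 47.2 and 16.8 kb, and Irf8, a brake on osteoclast formation, 5.75, 1.22 and 2.28 kb against 5.17, 42.9 and 5.30 kb. Spi1, the myeloid factor PU.1, had 15.3, 10.9 and 18.3 kb against 18.5, 52.2 and 20.2 kb. The control genes Gapdh and Actb moved the same way, at 3.29, 4.80 and 4.91 kb against 5.77, 30.9 and 5.58 kb and at 6.71, 5.16 and 11.3 kb against 13.9, 35.8 and 14.4 kb. As a background, covered length was higher in both RANKL lists than in both untreated lists for 6297 of 11966 genes (52.6%). In the same windows at one covered length, Csf1r differed by 0.01 (SE 0.20), Nfatc1 by -0.20 (SE 0.42) and Actb by 0.70 (SE 0.26) on the log2(length + 500 bp) scale, all with limma adjusted p-values of 0.848 or more.

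Of 28 measured interferon response genes 3 gained a start peak, which is 3 of the 11 with none in untreated replicates 1 and 3. Over all genes the numbers were 375 of 21887 (1.71%), and 375 of the 12906 with none. They were Cmpk2, a nucleotide kinase, Isg15 and Isg20. The Cmpk2 start had 0 bp in untreated lists and 584, 1071 and 817 bp with RANKL, and Isg20 had 0 bp against 472, 2006 and 2006 bp. The Isg15 region had 263 bp in RANKL replicates 1 and 3 and 0 bp in RANKL replicate 2, which had a peak elsewhere within 1 kb of the start. Trim30a, an inhibitor of Toll-like receptor signals, had a gained region at a start with 933, 451 and 833 bp with RANKL. It did not count as gaining a start peak, and untreated replicate 3 covered 1.082 kb within 25 kb of its ends. With RANKL replicate 1 left out 5 interferon genes gained a start peak, and 9 did without untreated replicate 3. Widened interferon regions were 3 of 14, at Irf9, Dhx58 and Oasl1. Among inflammatory genes Il1rn, the interleukin-1 receptor antagonist, gained a start peak of 542, 542 and 397 bp from 0 in untreated lists. Osm, a cytokine of bone and inflammation, had a gained region 0.3 kb from a start with 724, 771 and 623 bp with RANKL. Nor did Osm count as gaining a start peak, and untreated replicate 1 covered 0.941 kb within 25 kb of its ends. The chemokine gene Ccl4 had a gained site of 214, 684 and 850 bp that lay 6.4 kb from a start. Widened sites lay 27.2 kb from Ccl2, 8.6 kb from Cxcl1 and 8.6 kb from Il1b. Of the families, Ccl chemokines had 1 of 19 members with a gain, and Cxcl chemokines 0 of 12 and interferon regulatory factors 0 of 9.

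Macrophage identity and repressor genes had 14 of 59 shared regions widened (23.7%, against 20.8% of all) and 0 of 25 at one covered length, against 15.0%. Widened were, among others, sites of Klf4, Runx1, Id2, Itgam, Rbpj and Cd36, and gains lay near Lyz2, Fcgr1, Rbpj and Runx1. The Lyz2 site, 7.0 kb from the lysozyme gene, had 0 bp in untreated lists and 1153, 902 and 1162 bp with RANKL. At Runx1 a site 37.9 kb from a start had 3337, 998 and 2408 bp against 4597, 4341 and 4276 bp. Integrin, podosome and small GTPase genes had 18 of 65 widened (27.7%), for example at Ptk2b, the kinase Pyk2, with 0.709, 0.904 and 0.911 kb against 1.80, 1.90 and 1.73 kb at its start. Vav1, an exchange factor for Rac, had 0.862, 0.249 and 0.557 kb against 2.15, 1.71 and 1.96 kb at a site 2.1 kb away. Both sites separated the groups in all replicates. The remaining lists lay between 15.4% and 27.6%: 8 of 29 for MYC targets and ribosome biogenesis, 9 of 43 for metabolic regulators, 9 of 44 for lysosome and phagosome genes, 4 of 26 for the cell cycle and 4 of 24 for BET and elongation genes. Housekeeping genes reached 6 of 22 (27.3%), so a share of that size is not particular to a signalling list. Ccnd3, a D-type cyclin, gained a start peak of 872, 1022 and 993 bp from 0, 372 and 0 bp.

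Few sites went the other way as deposited. The 5 genes that lost a start peak were Amh, Lxn, Mrpl28, Tbc1d4 and Tnfrsf26. The strongest lost regions were short: 425, 0 and 281 bp in untreated cells against 0, 187 and 0 bp near H2bc21, a histone gene, and 289 bp in untreated replicates 1 and 3 alone inside Lcp1, the actin bundler L-plastin. Klhl6, Ndst2 and a site with no gene within 100 kb were the other 3. Besides Rtn4, the most narrowed sites lay inside Tmod1, Jmjd1c and Otulin and at the start of Cept1. Inside Otulin, a deubiquitinase of linear chains, the lengths were 1.71, 0 and 2.02 kb in untreated cells and 0.926, 1.45 and 0.610 kb with RANKL, so replicate 2 went the other way.

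Motif shares of the promoters are given with no test. They refer to 372 promoters with a gained peak, 1419 in widened regions, 6529 with a peak in all 4 lists and all 21263, each 300 bases long. The AP-1 motif TGANTCA was in 4.30%, 4.58%, 4.35% and 6.99% of them in that order. The NF-kB motif (GGGA and TTCC with 2 free bases between) was in 1.88%, 1.69%, 1.55% and 1.44%, and the interferon-response motif (GAAA, 2 free bases, GAAA) in 3.49%, 2.82%, 3.02% and 3.35%. The NFAT motif TGGAAA was in 14.2%, 15.2%, 15.3% and 19.3%. For the E-box CACGTG, which MYC and MAX can bind, the shares were 9.14%, 11.3%, 11.2% and 7.84%, and for the CAAT box CCAAT 43.0%, 40.4%, 36.9% and 38.2%. Both strands were searched, matches of different motifs may overlap, and the median GC content of the 4 sets was 62.0%, 63.0%, 62.0% and 56.3%. Distal sites could not be searched, since no genome sequence was used here.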

How the data were processed

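Peak lists of 6 H3K27ac libraries were used (single-end 50 bp reads, per the labels). FastQC, Bowtie2, MACS2 and the build mm10 (GRCm38) are named in the submitters' processing notes, with 1 list per library; versions, settings and the use of input are not given in the sources used here. The deposited fold is a ratio over the caller's local background, and the deposited p and q are on a -log10 scale. These are the authors' values for each peak, used to rank or filter within a list and never as tests.

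Nearest genes lay within 100 kb. Starts were the listed RefSeq starts of 17492 genes and both ends of the other 4395. Covered length was modelled with limma 3.58.1 in R 4.3.3 with a trended prior: regions as log2(length + 100 bp), centred on each library's median, and gene windows as log2(length + 500 bp) for genes with a mean of at least 500 bp, with Benjamini-Hochberg adjustment at 0.05. Both ran 2 against 2. Extent was compared by exact permutation tests. The code was checked on simulated data.

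Replicate numbers come from the labels. Over the 6859 regions held by all 6 lists, deviations of same-numbered libraries from their group means correlated at 0.13, 0.15 and 0.23. Those of differently numbered ones lay between -0.16 and -0.03. Deviations cancel within a group, so positive values for same-numbered libraries make others negative by construction. The numbers were taken to pair the libraries as a working choice.

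The libraries, 17 gene lists and 39 families were chosen with earlier results of these data known. Regions were named by strength or width (10 gained at starts, 10 distal, 10 widened, 5 lost, 5 narrowed), genes by at least 3 gained regions, list membership with a gain or widening, families by their share of gaining members, and a fixed set of osteoclast and macrophage genes. Kruppel-like factors, TRAF adaptors, Egr1 and the printed promoters were added after their values were seen. The other settings tried are named in the closing section.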

Additional observations from a re-analysis of the deposited data

How the results depend on the processing

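Counts of presence depended on list length. At one covered length 614 regions were gained and 1402 lost, 520 widened and 13 narrowed, and 710 genes lost a start peak. At one peak number 445 regions were lost, 1055 widened and 35 narrowed, and 224 genes gained and 175 lost a start peak. With peaks of -log10 q of at least 5, which leaves 0.479 Mb in untreated replicate 1, 5 regions were widened and 0 narrowed, and 764 genes gained and 25 lost a start peak; no list share could be computed there. With all 3 replicates 736 regions were gained, 1 lost and 0 narrowed, and 0 genes lost a start peak. Requiring 50% coverage gave 1914 gained and 90 lost, merged peaks 33 lost, and no other peak within 1 kb 31 lost. A width ratio of 1.2 gave 3404 widened and 181 narrowed, and of 2 gave 794 and 17. A start window of 5 kb gave 11 losing genes. Beyond the construction of each setting, the cause was not tested.

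With 1 library left out, the ranges were 2124 to 3445 gained, 179 to 938 lost, 2247 to 4920 widened and 219 to 462 narrowed regions, 589 to 1920 genes gaining and 25 to 67 losing a start peak, and 3 to 9 interferon genes gaining one. Shares of widened regions ranged from 22.5% to 53.3% for NF-kB and from 25% to 50% for MAP kinase genes, while that of all shared regions ranged from 18.2% to 44.0%. limma called 0 to 1 regions narrower: Rtn4 without RANKL replicate 1 (log2 -2.07, adjusted p = 0.0132) and a site near H2-T24 without RANKL replicate 3 (-3.77, adjusted p = 7.5e-04). Each rests on 1 RANKL library assumed to vary like the others, and at H2-T24 the omitted library covered 4.43 kb, more than either untreated one (3.32 and 2.39 kb).

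With the replicate block limma called 1 region wider and 1 narrower, and no other call changed; with all 3 replicates and the block it called 0, but neither of the 2 regions was among the 6859 of that fit, as untreated replicate 2 did not hold them.

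Single values turned in direction at Irf2bp2 (-2179.5 bp, one covered length), Rtn4 (121.5 bp) and Otulin (463 bp) with the stricter q, and Jmjd1c (341.667 bp, all 3 replicates). Gene windows that were lower at one covered length were higher in the lists as deposited: Fam166b 0.31, Rps27a 0.021, Clhc1 0.021, Plk3 0.32, Armh3 0.38, Hps6 0.38, Wdr86 0.38 and Nub1 0.30 on the log2 scale. At one peak number the values were 0.068 for Fam166b, 0.19 for Plk3, 0.38 for Armh3 and Hps6, 0.37 for Wdr86 and 0.30 for Nub1. Slc44a4 stood at -1.31 with all 3 replicates, also with the block, and Armh3 and Hps6 ranged from -3.33 without untreated replicate 3 to 0.051 without untreated replicate 1. Without read counts, depth and its limits are unknown.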
